A study of Canis lupus familiaris with 6 samples.

Results

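The genes described here are 10 secreted survival factors and their receptors that are linked to the protection of retinal neurons: the fibroblast growth factors FGF1 and FGF2 and their receptor FGFR1, the cytokines LIF and CNTF, the peptide endothelin 2 (EDN2) and the endothelin B receptor (EDNRB), the neurotrophic factors BDNF and GDNF, and midkine (MDK). They are defined by name, and the rule uses no measured value. They and the pathway lists used below were chosen with earlier results of these data known. Of the 10 names, 9 were found among the 34981 gene names of the files. GDNF was not analysed here.

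Neural retina of dogs was profiled by single-cell RNA sequencing with a 3' chemistry in 3 independent experiments, named LG5, RC726 and RC724. All dogs had normal (wild-type) retinas, received immunosuppression, and had fragments of retinal organoids, grown from the human embryonic stem cell line WA09 with a CRX-tdTomato reporter, injected under the retina. After 3 days, 1 punch of 5 mm was taken over the graft and 1 from a region without graft (control), so the control retina had also been operated on and immunosuppressed. That makes 6 libraries, 3 in each group, and each comparison below is a punch over the graft against the control punch of the same experiment. The labels give neither the age of the dogs nor whether each experiment used a separate dog, so p-values measure the spread between these 3 experiments.

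The deposited libraries held 34768162 to 60755006 unique molecular identifiers (UMIs, 1 per captured RNA molecule), and 8039 to 22427 barcodes per library were kept. Cell classes were rebuilt from clusters and named by marker genes, and names such as rod-like and Müller-like are used since neither a sort nor an annotation gives the types. All 10 rod markers, 10 of 11 Müller markers and 7 of 8 endothelial markers lay over 2 times above the rest of the retina in their class. So did 6 of 7 markers of pericytes or smooth muscle in the endothelial-like class (summed level 424 to 2231 CPM in control and 1521 to 2141 CPM over the graft), and a marker gate called 53 of its barcodes pericyte or smooth muscle and 76 endothelial. Of 7 astrocyte markers 5 did, among them GFAP, PAX2 and GJA1, while SLC14A1 was lower in the astrocyte-like cells (5.03 CPM, the UMIs of a gene scaled to 1000000 UMIs of the class in a library) than in the rest (81.4 CPM) and S100B was close to it (6.97 against 4.08 CPM). The LG5 libraries stood apart: their rod-like cells fell into other clusters (0 and 8) than those of RC726 and RC724 (1, 3, 6 and 10), their median retained barcode was shallower (1194 and 1281 UMIs against 1954.5 to 2779), and an estimated 28.7% and 37% of the UMIs of rod-like barcodes came from free RNA in the suspension, against 3.46% to 7.25% in the other 4 libraries. Libraries shared 14 to 84 barcodes in pairs, at most 0.655% of the smaller library. A cluster of 3401 barcodes that scored highest for rod markers stayed unnamed because an amacrine marker led it. It held 15.7% and 5.83% of the barcodes over the graft and 11.6% and 1.57% in control in RC726 and RC724, and under 0.06% in LG5. Clusters 1 and 6 had the lowest rod scores of the rod-like clusters, with 4 of 10 rod markers over 2 times above the rest. No rod marker was among the top 10 genes of either. The marker gate called 13905 rod-like barcodes rod and left 19327 of them unnamed.

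As background, neurons and glia of the retina make these factors at low levels and more of them after injury. In injured rodent retina, LIF is a signal of Müller glia, the radial glia that span the retina. It acts through LIFR and the shared receptor subunit gp130 (IL6ST) to switch on STAT3, and it delays photoreceptor death. CNTF uses the same pair of subunits together with CNTFR. Endothelin 2 is known in the same setting as a signal of stressed photoreceptors that is read by EDNRB on glia. FGF1 and FGF2 lack a classical secretion signal, bind FGF receptors together with heparan sulfate, and signal through ERK. BDNF supports neurons through its receptor NTRK2, and midkine is a heparin-binding growth factor of development and repair.

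FGF1, FGF2 and FGFR1 were highest in astrocyte-like cells of the control retina among the 8 classes that held at least 10 barcodes in all 6 libraries. Endothelial-like and ganglion-like cells fell short of that number and had comparable levels of some of these genes. Levels are given per library as CPM of the summed UMIs of a class, and because the classes come from the same cells they are a description without a test. FGF1 in control was at 101, 231 and 164 CPM in astrocyte-like cells of LG5, RC726 and RC724, and at 50.01, 70.9 and 44.9 CPM in Müller-like cells, so these ranges were apart. The 33 ganglion-like cells of the LG5 control were at 101 CPM of FGF1 too. Bipolar-like cells held 20.8 to 46.6 CPM of FGF1 and rod-like cells 12.3 to 28.2 CPM, and each of these ranges overlapped the next one in the order. FGF2 in control was at 59.5, 76.6 and 85.3 CPM in astrocyte-like cells and at 69.7, 69.2 and 134 CPM in the 9 to 25 endothelial-like cells of the control punches. Müller-like cells (16.6 to 33.5 CPM) and amacrine-like cells (6.28 to 36.3 CPM) followed for FGF2, with ranges that overlapped.

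FGFR1, the receptor tyrosine kinase that both ligands bind, was at 323, 284 and 324 CPM in control astrocyte-like cells, at 99.2, 98.7 and 107 CPM in Müller-like cells and at 27.6 to 47.7 CPM in amacrine-like cells. The ranges of these 3 classes did not overlap. Control endothelial-like cells were at 287, 225 and 178 CPM of FGFR1 in LG5, RC726 and RC724, which overlapped the astrocyte-like range and lay above the Müller-like one. In rod-like cells FGFR1 lay at the level of free RNA, for example at 15.9 CPM in the LG5 control where free RNA alone would give 21.2 CPM and at 1.76 CPM in the RC724 control where it would give 2.58 CPM. Müller-like cells carried 64.2% of all FGFR1 UMIs in the control libraries, 50.03% of those of FGF2 and 46.0% of those of FGF1. Of the control UMIs of all genes, they held 10718327 of 31079427 in LG5, 7306895 of 36175813 in RC726 and 20307916 of 47797546 in RC724.

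LIF and EDN2 were rare, and most of their UMIs were in Müller-like cells. Müller-like cells carried 17 of 20 LIF UMIs in the control libraries and 137 of 147 over the graft, with the remaining control UMIs in astrocyte-like cells. The LIF level was not highest there in control: in RC724 astrocyte-like cells were at 1.27 CPM from 3 UMIs and Müller-like cells at 0.739 CPM, and over the graft the values were 2.05 and 4.02 CPM. Astrocyte-like cells of LG5 and RC726 had 0 LIF UMIs in both groups. LIF was at 0 UMIs in the rod-like cells of 5 libraries and at 1 UMI in the RC724 library over the graft. EDN2 had 70 of its 75 control UMIs and 128 of its 140 UMIs over the graft in Müller-like cells. In rod-like cells EDN2 had no UMI in RC726 and RC724, and in LG5 it was at 0.124 CPM in control and 0.28 CPM over the graft, below the 0.322 and 0.439 CPM of free RNA. No EDN2 UMI was found in endothelial-like cells of any library.

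EDNRB, the receptor for endothelins, was found in other cells than EDN2. Its control level was 27.1, 39.1 and 47.3 CPM in astrocyte-like cells, above the next class, bipolar-like cells, at 0.853 to 2.36 CPM. In endothelial-like cells EDNRB was at 63.6 CPM in the RC724 control and at 57.2 and 46.4 CPM over the graft in RC724 and RC726, and it had no UMI in the LG5 libraries or in the 9 endothelial-like cells of the RC726 control. Müller-like cells held 0 to 0.203 CPM of EDNRB in the 6 libraries, in each at or below what free RNA would give.

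BDNF had its highest control mean among the 8 classes in Müller-like cells, at 4.94, 7.39 and 23.1 CPM, and this range overlapped that of the next class. In the LG5 control the bipolar-like (8.15 CPM) and rod-like cells (7.57 CPM) were above the Müller-like cells. The ganglion-like cells, which only LG5 held in number (33 in control and 104 over the graft), were at 55.2 CPM of BDNF in control and at 34.03 CPM over the graft. MDK was at 444 to 897 CPM in control endothelial-like cells, at 43.1 to 153 CPM in Müller-like cells and at 42.2 to 63.4 CPM in microglia-like cells, and Müller-like cells carried 74.9% of its control UMIs. The control microglia-like sums also held 7119 to 11223 CPM of summed Müller markers, against 18151 to 21959 CPM in Müller-like cells. How much of the microglia-like MDK was Müller RNA was not tested. CNTF was low in every class, with 5.97 ± 2.99 CPM (SD, n = 3) in control astrocyte-like cells and 1.65 ± 0.76 CPM in rod-like cells, and each class overlapped the next in the order of the 8.

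**Figure D1:**
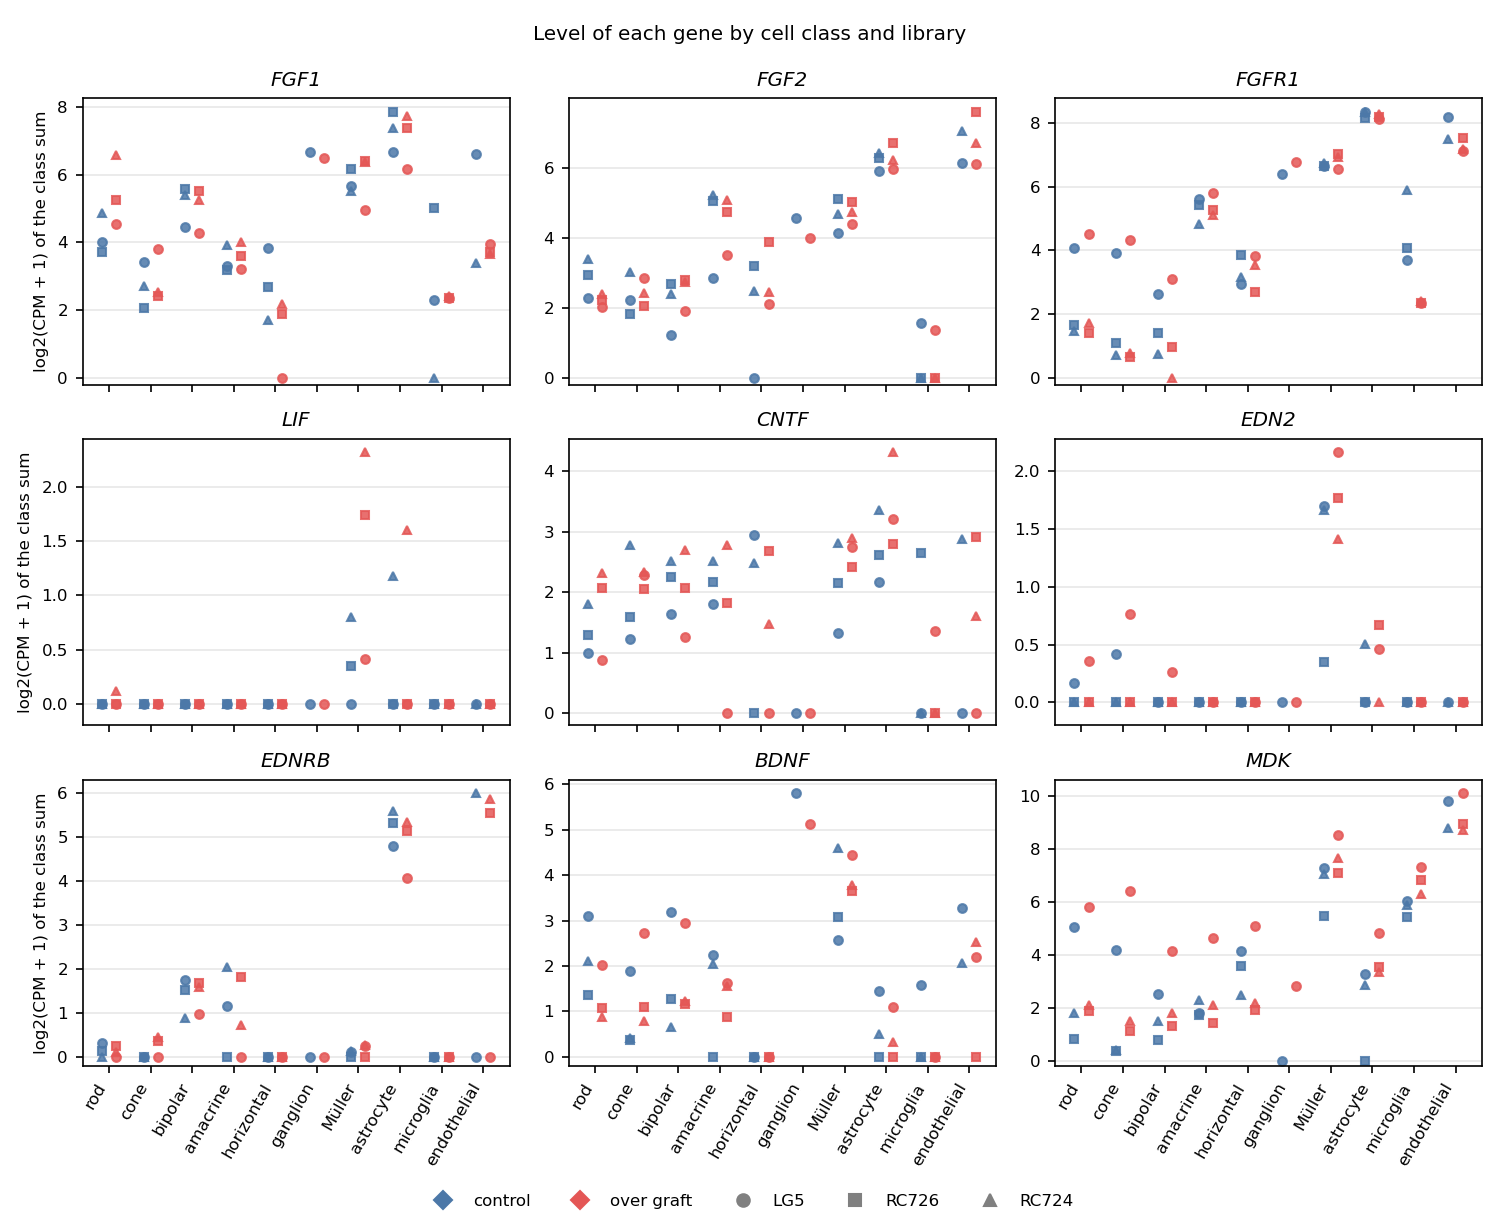
Level of the 9 measured genes by cell class, as log2 of CPM + 1 of the UMIs summed over a class (vertical axis), with 1 point per library that held at least 10 barcodes of the class. Blue is control, red is over the graft, and the shape gives the experiment. EDN2 points above 1 on this scale are all of Müller-like cells (T or NK-like cells, not drawn, had 2 EDN2 UMIs or 4.84 CPM in LG5 over the graft), LIF points above 1 are of Müller-like cells and of the RC724 astrocyte-like cells, and EDNRB points above 4 are all of astrocyte-like and endothelial-like cells.

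**Figure D2:**
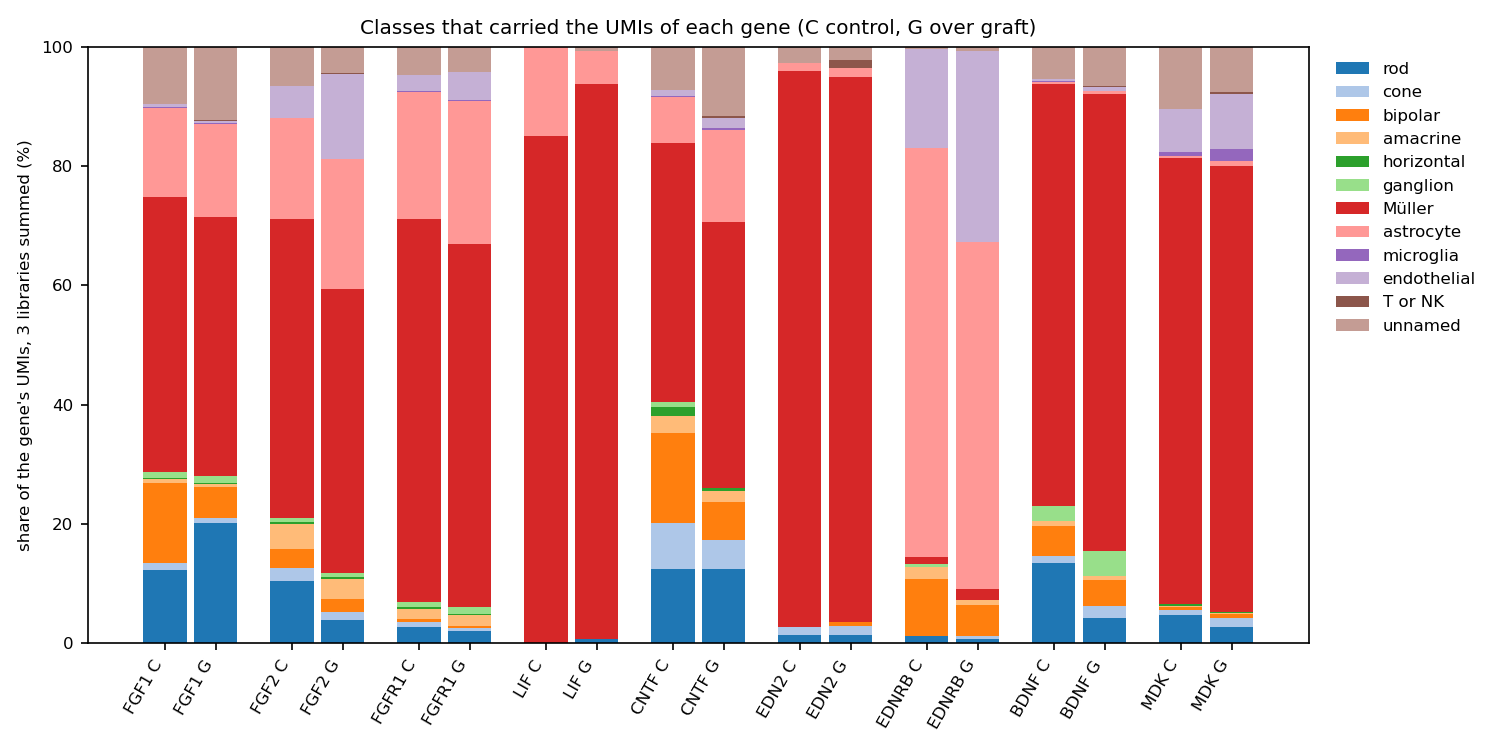
Share of the UMIs of each gene (vertical axis, percent) carried by each class, with the 3 libraries of a group summed, for control (C) and over the graft (G). Müller-like cells carried the larger part of LIF, EDN2, BDNF, MDK and FGFR1 in both groups, and astrocyte-like cells that of EDNRB.

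The question of the comparison is how retina over a graft differed from retina away from it. Each class with at least 10 barcodes in every library, and all retained barcodes of a punch together, were tested over all genes with edgeR's quasi-likelihood test with the experiment as a block, and a gene counts as changed at a Benjamini-Hochberg adjusted p under 0.05. In rod-like cells 4 of the 6 genes that passed the filter on low counts changed, FGF1 and MDK upward and FGF2 and BDNF downward, beside 18.3% of all genes tested there. In the punch as a whole 2 of 9 changed, LIF and MDK, both upward, beside 3.19% of all genes. No member changed among 8 tested in Müller-like cells (0.227% of all genes called), 3 in cone-like (3.79%), 4 in bipolar-like (0.159%), 3 in amacrine-like (0.385%), 6 in astrocyte-like (0.12%) and 1 in microglia-like cells, where 0% of all genes were called by edgeR, 278 of 3872 had an unadjusted p under 0.05 and DESeq2 called 40. None passed the filter in horizontal-like cells (0.0336% called). In a punch, more cells of a class and more RNA per cell cannot be told apart.

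**Figure D3:**
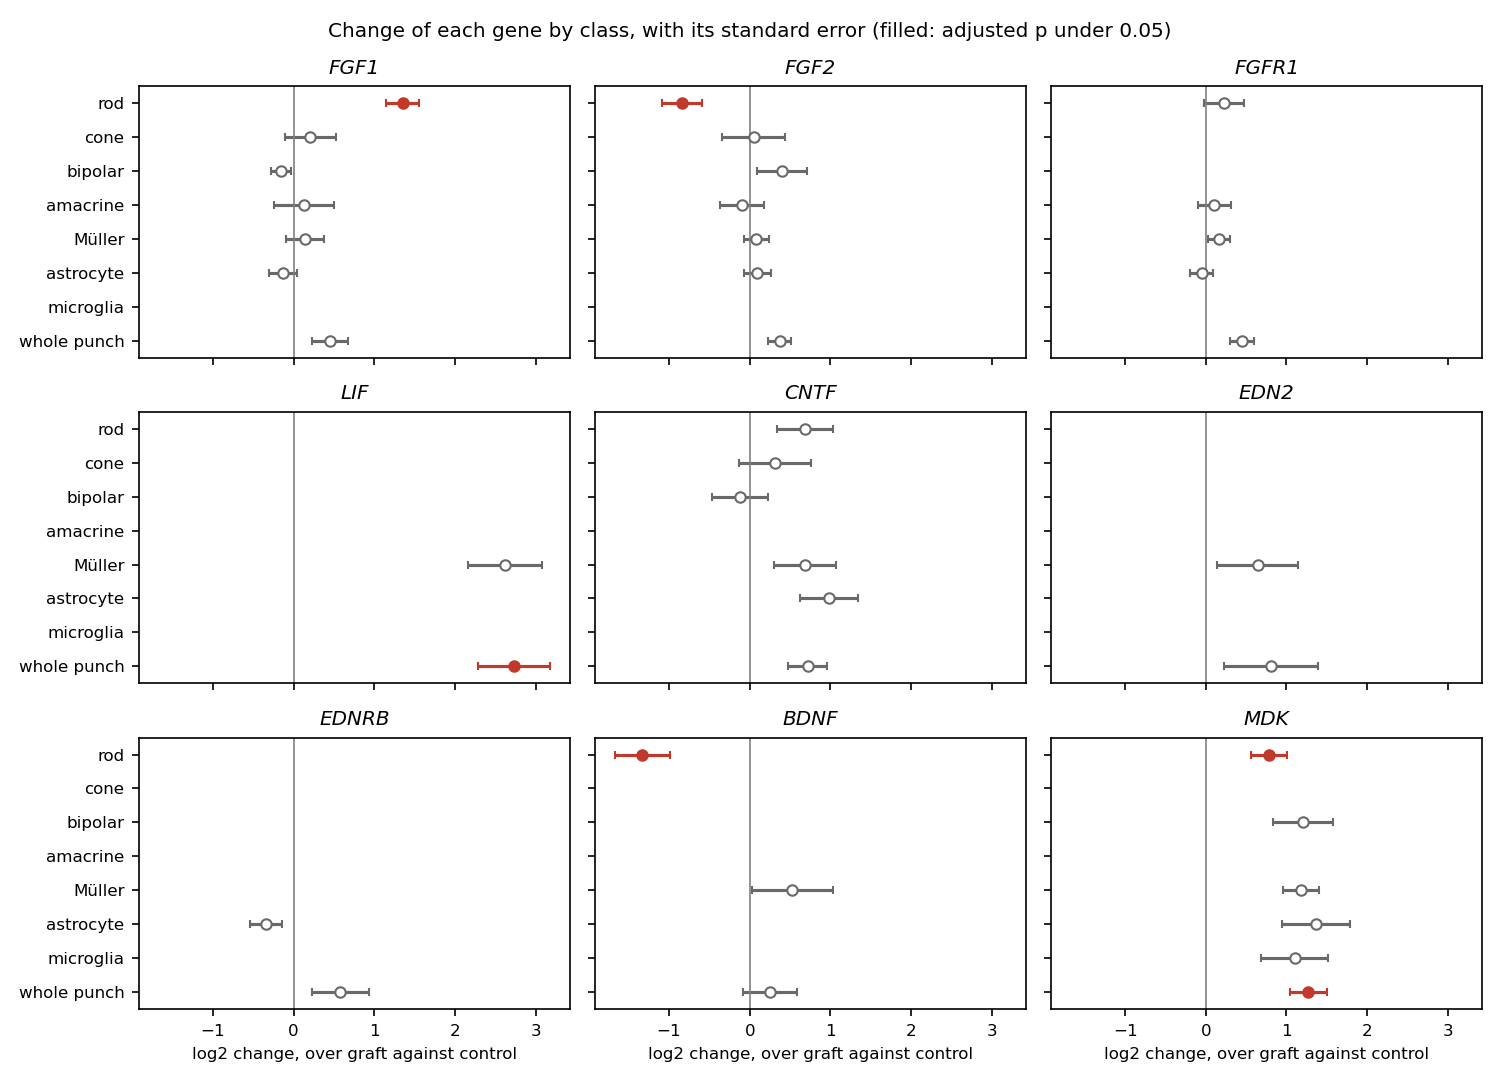
Log2 change of each gene over the graft against control (horizontal axis) with its standard error, for each class and for the whole punch (rows). Filled red points had an adjusted p under 0.05, and a missing point means that the gene did not pass the filter on low counts in that class. FGF1 lies to the right of 0 in rod-like cells and between -0.16 and 0.20 in the other cell classes, and the MDK points all lie to the right of 0.

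FGF1 rose in rod-like cells. It was at 15.3 CPM in control and 22.5 CPM over the graft in LG5, at 12.3 and 37.2 CPM in RC726, and at 28.2 and 95.3 CPM in RC724. Each punch over the graft lay above its own control, while the ranges of the groups overlapped. The log2 change was 1.35 (SE 0.21, edgeR adjusted p = 0.000738, higher in 3 of 3 experiments). The LG5 control value lay close to the 12.2 CPM that free RNA would give there, and the other control and graft values lay at least 2.89 times above theirs.

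The rise of FGF1 was seen across the rod-like clusters. Of 10 cluster-by-experiment pairs with at least 50 barcodes in both punches, 9 were higher over the graft, for example cluster 1 at 13.7 and 38.0 CPM in RC726 and at 30.6 and 136 CPM in RC724. The exception was cluster 8 of LG5, at 26.3 CPM in control and 23.3 CPM over the graft. In cluster 10 of RC724 the rise rests on 5 UMIs in control and 7 over the graft. Of the same 10 pairs, MDK was higher in 9 and lower in 1, and CNTF was higher in 8 and lower in 1. The count of pairs thus does not set FGF1 apart. These pairs are clusters of the same experiments and are not replicates. The unnamed cluster with rod markers had 15.6 and 51.5 CPM of FGF1 in RC726, with 24.0 and 117 CPM in RC724. The summed level of the 10 rod markers in rod-like cells was 20024 to 29257 CPM in control and 10792 to 16786 CPM over the graft, and its part in this and the following changes in rod-like cells was not tested.

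FGF2 moved the other way in rod-like cells and was low there. It was at 3.85 and 3.08 CPM (control, over the graft) in LG5, at 6.62 and 3.70 CPM in RC726 and at 9.64 and 4.30 CPM in RC724, so every punch over the graft was below its control. The log2 change was -0.84 (SE 0.25, edgeR adjusted p = 0.0331). Both LG5 values lay below the free-RNA level of 3.92 and 4.14 CPM. The call was lost without RC726 (adjusted p = 0.106) and without RC724 (adjusted p = 0.325), with DESeq2 (0.115), with free RNA subtracted (0.0737) and with classes gated by markers per barcode (0.225).

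BDNF fell in rod-like cells from few UMIs: 61 in control and 22 over the graft in LG5, 16 and 11 in RC726, with 32 and 10 in RC724. In CPM these are 7.57 and 3.08, 1.56 and 1.10, and 3.32 and 0.827, each lower over the graft. The log2 change was -1.33 (SE 0.34, edgeR adjusted p = 0.0175), and the call was lost without RC724 (adjusted p = 0.167), with DESeq2 (0.062) and with free RNA subtracted (0.0947). The LG5 value over the graft was at the 3.11 CPM of free RNA.

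MDK passed the threshold in rod-like cells at a log2 change of 0.78 (SE 0.23, edgeR adjusted p = 0.0316), and its level there was that of free RNA in all 6 libraries. In LG5 it was at 32.0 CPM in control, with 28.7 CPM from free RNA, and at 54.4 CPM over the graft, with 52.1 CPM from free RNA. The RC726 values were 0.779 and 2.70 CPM against 1.19 and 3.49 CPM from free RNA, and the RC724 values 2.49 and 3.31 CPM against 2.51 and 3.56 CPM. With free RNA subtracted, MDK no longer passed the filter in rod-like cells. The call was also lost without any 1 of the experiments (adjusted p = 0.12 without LG5, 0.0843 without RC726 and 0.0531 without RC724).

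CNTF and FGFR1 did not pass the test in rod-like cells. CNTF had 0.993 and 0.839 CPM in LG5, 1.46 and 3.20 CPM in RC726, with 2.49 and 3.97 CPM in RC724 (log2 change 0.69, SE 0.35, edgeR adjusted p = 0.195). FGFR1 had a log2 change of 0.23 (SE 0.25, adjusted p = 0.578).

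LIF was the cytokine with the larger difference between the punches. In Müller-like cells it had 0 UMIs in control and 5 over the graft in LG5, 2 and 33 in RC726, with 15 and 99 in RC724. These counts came from 0 of 3206 and 4 of 4606 Müller-like barcodes in LG5, 2 of 448 and 14 of 812 in RC726, and 13 of 922 and 55 of 1026 in RC724. Every library over the graft was above its control, and RC724 was highest in both groups. In RC724 that is 1.41% of Müller-like barcodes in control and 5.36% over the graft at a median of 22569.5 and 23847 UMIs, against 0% and 0.0183% of rod-like barcodes at 1548 and 1651 UMIs. Thinned to 1000 UMIs a barcode the shares in RC724 were 0.109% and 0.195%, at most 2 barcodes a library, which is too few to compare.

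The log2 change of LIF in Müller-like cells was 2.62 (SE 0.46), with an edgeR adjusted p of 0.0781 over the 16316 genes tested, so it missed the threshold. Pooled over the libraries the ratio of LIF per Müller UMI was 5.74 (95% interval 3.46 to 10.1, exact, counting error only). This interval takes UMIs as independent and leaves out the pairing by experiment, so it adds nothing to the test. In the punch as a whole LIF had 0 and 5 UMIs in LG5, 2 and 33 in RC726, with 18 and 109 in RC724, a log2 change of 2.73 (SE 0.45, edgeR adjusted p = 0.0355, higher in 3 of 3 experiments). Müller-like cells were 19.0% of the barcodes in control and 20.5% over the graft in LG5, 4.82% and 7.66% in RC726, with 11.5% and 11.8% in RC724.

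MDK had a positive change in each class tested, and in rod-like, bipolar-like and most astrocyte-like libraries its level was near or below that of free RNA. In Müller-like cells it was at 153 CPM in control and 362 CPM over the graft in LG5, at 43.1 and 136 CPM in RC726 and at 130 and 199 CPM in RC724. Each punch over the graft lay above its control, at levels at least 5.37 times those of free RNA over the graft. The log2 change in Müller-like cells was 1.18 (SE 0.22, edgeR adjusted p = 0.0903) and missed the threshold. In the punch as a whole MDK went from 77.4 to 182 CPM in LG5, from 16.4 to 63.4 CPM in RC726 and from 65.7 to 103 CPM in RC724, a log2 change of 1.27 (SE 0.23, edgeR adjusted p = 0.0402), and without LG5 the adjusted p was 0.0934.

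In microglia-like cells MDK was at 63.4 and 159 CPM in LG5, 42.2 and 112 CPM in RC726, with 58.5 and 77.5 CPM in RC724, from 2 to 306 UMIs a library (log2 change 1.10, SE 0.41, edgeR adjusted p = 0.667). Summed Müller markers there were at 7119 to 11223 CPM in control and 2505 to 5667 CPM over the graft. Free RNA was estimated at 22.7% to 83.7% of UMIs in control and 17.3% to 29.1% over the graft. The part of either in these MDK levels was not tested. In the endothelial-like cells, which were too few for a test, MDK was at 897 and 1098 CPM in LG5, 502 and 487 CPM in RC726, with 444 and 413 CPM in RC724, with no shared direction. The changes of MDK in bipolar-like (1.21, SE 0.37, adjusted p = 0.263) and astrocyte-like cells (1.37, SE 0.42, adjusted p = 0.397) rest on low levels. Bipolar-like MDK was at most 0.391 times the free-RNA level in each of the 6 libraries. The free-RNA estimate for bipolar-like barcodes was 99.1% of UMIs in LG5 over the graft and 49.6% in the LG5 control. Levels this far below the estimate mean that it was too high, so it cannot tell how much of this MDK was free RNA. Astrocyte-like MDK was at 27.4 CPM in LG5 over the graft, where free RNA would give 44.7 CPM, had 0 UMIs in the RC726 control, and was above 1.1 times the free-RNA level only in RC726 over the graft (10.6 against 3.54 CPM).

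**Figure D4:**
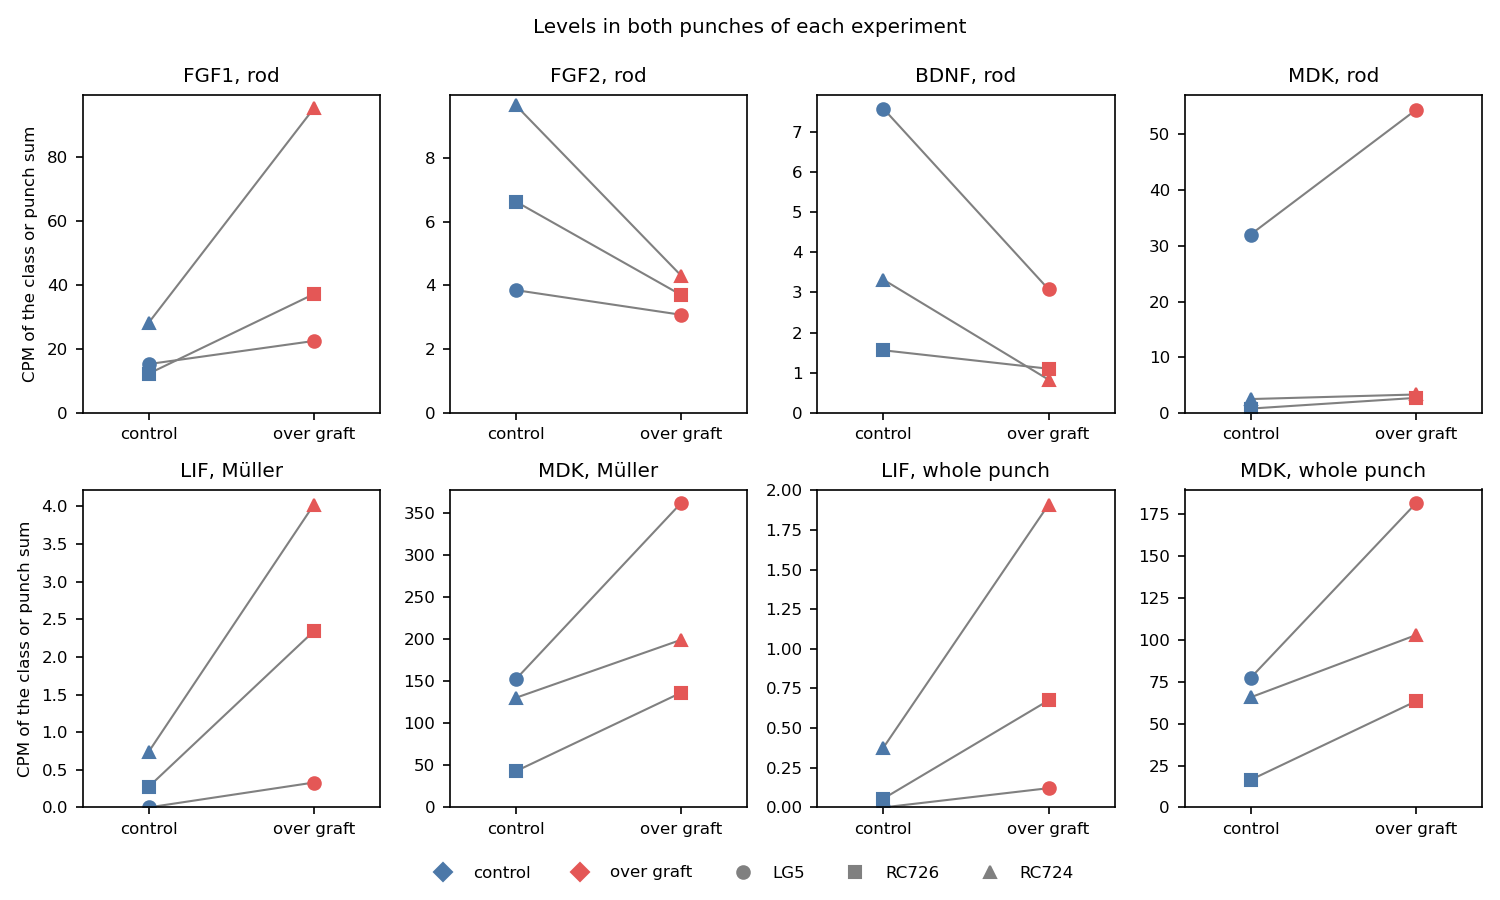
CPM (vertical axes, each from 0) in control and over the graft for the genes that changed in rod-like cells (upper row) and for LIF and MDK in Müller-like cells and in the whole punch (lower row). Grey lines join the punches of 1 experiment. The lines for FGF1, LIF and MDK all rise and those for FGF2 and BDNF in rod-like cells all fall.

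The remaining members of the glial classes did not pass the test. EDN2 in Müller-like cells had 24 UMIs in control and 53 over the graft in LG5, 2 and 34 in RC726, with 44 and 41 in RC724. The first 2 experiments were thus higher over the graft (2.24 and 3.51, 0.274 and 2.41 CPM) and RC724 was lower (2.17 and 1.67 CPM). The log2 change was 0.64 (SE 0.50, edgeR adjusted p = 0.651). EDNRB in astrocyte-like cells was lower over the graft in 3 of 3 experiments, at 27.1 and 15.8 CPM, 39.1 and 34.3 CPM, and 47.3 and 39.9 CPM, with a log2 change of -0.34 (SE 0.19, adjusted p = 0.804).

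BDNF in Müller-like cells went in different directions, from 4.94 to 20.8 CPM in LG5, from 7.39 to 11.5 CPM in RC726 and from 23.1 to 12.8 CPM in RC724 (log2 change 0.53, SE 0.50, edgeR adjusted p = 0.71). FGF1 in Müller-like cells did likewise, at 50.01 and 29.8 CPM, 70.9 and 83.2 CPM, and 44.9 and 81.5 CPM (0.14, SE 0.24, adjusted p = 0.857). FGF2 (0.08, SE 0.15) and FGFR1 (0.16, SE 0.14) in Müller-like cells, and FGF1 (-0.13, SE 0.18), FGF2 (0.09, SE 0.17) and FGFR1 (-0.05, SE 0.14) in astrocyte-like cells, had changes smaller than or close to their standard errors. CNTF was higher over the graft in 3 of 3 experiments in Müller-like cells (1.49 and 5.69, 3.42 and 4.33, 6.06 and 6.46 CPM) and in astrocyte-like cells (3.50 and 8.27, 5.10 and 5.91, 9.29 and 18.9 CPM), with adjusted p of 0.506 and 0.516.

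Whether a change differed between classes was tested in 1 edgeR fit per pair. For FGF1 the bipolar-like change was lower than the rod-like change by 1.48 on the log2 scale (difference -1.48, SE 0.28, adjusted p = 0.0348, with 0.797% of all genes called for this pair). FGF1 in bipolar-like cells was at 20.8 and 18.5 CPM in LG5, 46.6 and 44.3 CPM in RC726, with 41.2 and 37.3 CPM in RC724, so each was slightly lower over the graft, where each rod-like value was higher. The differences of FGF1 from rod-like cells were -1.16 (SE 0.39, adjusted p = 0.23) in Müller-like, -1.15 (SE 0.46, 0.27) in amacrine-like and -1.10 (SE 0.43, 0.543) in cone-like cells, and did not pass. No other member passed in any of the 4 pairs, in which 1.21% (Müller-like), 1.96% (amacrine-like) and 0.0472% (cone-like) of all genes were called. The nearest were FGF2 in Müller-like against rod-like cells (0.96, SE 0.25, adjusted p = 0.116) and in bipolar-like against rod-like cells (1.27, SE 0.39, adjusted p = 0.167). With 1 term per library in place of a term per class and experiment, the FGF1 difference was -1.44 with an adjusted p of 0.766.

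Among other genes of these pathways, 115 listed names were found in the files and 20 of the 65 tested in rod-like cells changed, 16 upward and 4 downward, beside 18.3% of all genes there. Of the 8 tested receptors and kinases of cytokines that use gp130, among them LIF and CNTF, 4 rose in rod-like cells and none fell. LIFR, which binds LIF, went from 23.6 to 68.9 CPM in LG5, from 47.2 to 92.4 CPM in RC726 and from 81.8 to 187 CPM in RC724 (log2 change 1.21, SE 0.12, edgeR adjusted p = 3.958e-05). IL6ST, the gp130 subunit, went from 81.4 to 222 CPM, from 58.1 to 115 CPM and from 60.8 to 167 CPM (1.28, SE 0.12, adjusted p = 2.442e-05). The kinases JAK1 (0.38, SE 0.11) and JAK2 (0.38, SE 0.12) passed narrowly. CNTFR, the CNTF-binding subunit, had a log2 change of -0.95 (SE 0.42, adjusted p = 0.146). The median log2 change of the 8 was 0.38 beside 0.01 over all genes.

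Of 10 tested targets of gp130 and STAT3, 6 rose in rod-like cells and none fell, beside 18.3% of all genes called there. Their median log2 change was 1.10 beside 0.01 over all genes, in a list chosen with earlier results of these data known. STAT3 itself went from 54.4 to 154 CPM, from 112 to 185 CPM and from 139 to 320 CPM (log2 change 1.12, SE 0.13, edgeR adjusted p = 0.0001448), and BCL3, a nuclear cofactor of NF-kB, from 4.97 to 36.5 CPM, from 0.682 to 7.39 CPM and from 0.622 to 16.5 CPM (3.39, SE 0.30, adjusted p = 1.457e-05). JUNB (1.09, SE 0.12) and GFAP (2.08, SE 0.22) rose too. GFAP, a glial filament gene, lay below the free-RNA level in the LG5 rod-like cells (32.6 against 45.4 CPM over the graft and 6.21 against 12.3 CPM in control). The summed level of 11 Müller markers in rod-like cells was 359 to 3861 CPM in control and 383 to 3462 CPM over the graft, and none of the 11 was at 0. That of 7 astrocyte markers was 5.80 to 45.3 CPM in control and 12.2 to 52.9 CPM over the graft.

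In Müller-like cells, where LIF was found, 0 of 80 pathway genes tested passed with edgeR, beside 0.227% of all genes. LIFR was low there (5.34 to 8.52 CPM in control, with 1.79 to 5.87 CPM from free RNA) and IL6ST was at 107 to 129 CPM in control and 117 to 120 CPM over the graft. The change of IL6ST was lower in Müller-like than in rod-like cells (difference -1.24, SE 0.19, edgeR adjusted p = 0.00957), as were those of STAT3 (-1.18, SE 0.23, adjusted p = 0.0387), JUNB (-1.35, SE 0.23, adjusted p = 0.0163) and PROS1, a ligand of TAM receptors (-1.88, SE 0.29, adjusted p = 0.0103). For LIFR the difference did not pass (-0.36, SE 0.20, adjusted p = 0.531). With 1 term per library in the fit, no gene at all was called for this pair. In cone-like cells STAT3 (1.03, SE 0.16) and IL6ST (0.92, SE 0.17) rose. The IL6ST call there was lost without LG5 (edgeR adjusted p = 0.0878) and without RC724 (0.0973). With free RNA subtracted, 0 of 10388 genes were called in cone-like cells, so STAT3 and IL6ST did not pass either (0.917 for both). The free-RNA estimate for cone-like barcodes was 100% in both LG5 libraries, so this alternative cannot judge single genes in this class. TIMP1, an inhibitor of metalloproteinases, was called in cone-like cells (2.998, SE 0.77, edgeR adjusted p = 0.0454) at levels below free RNA in all 6 libraries, and without LG5 its change was 0.46 (adjusted p = 0.636).

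In astrocyte-like cells TIMP1 rose, from 909 to 7846 CPM in LG5, from 614 to 1537 CPM in RC726 and from 2046 to 4222 CPM in RC724 (log2 change 1.85, SE 0.33, edgeR adjusted p = 0.0447). The call was lost with DESeq2 (0.686) and with free RNA subtracted (0.474). In the whole punch GFAP (2.02, SE 0.16, edgeR adjusted p = 0.0125), BCL3 (1.59, SE 0.29, adjusted p = 0.0429), LIFR (0.96, SE 0.12, adjusted p = 0.0224) and IL6ST (0.57, SE 0.10, adjusted p = 0.0392) rose. Without LG5 the calls of BCL3 (0.0789) and IL6ST (0.0769) were lost, and that of IL6ST also without RC726 (0.175) and without RC724 (0.0573).

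**Figure D5:**
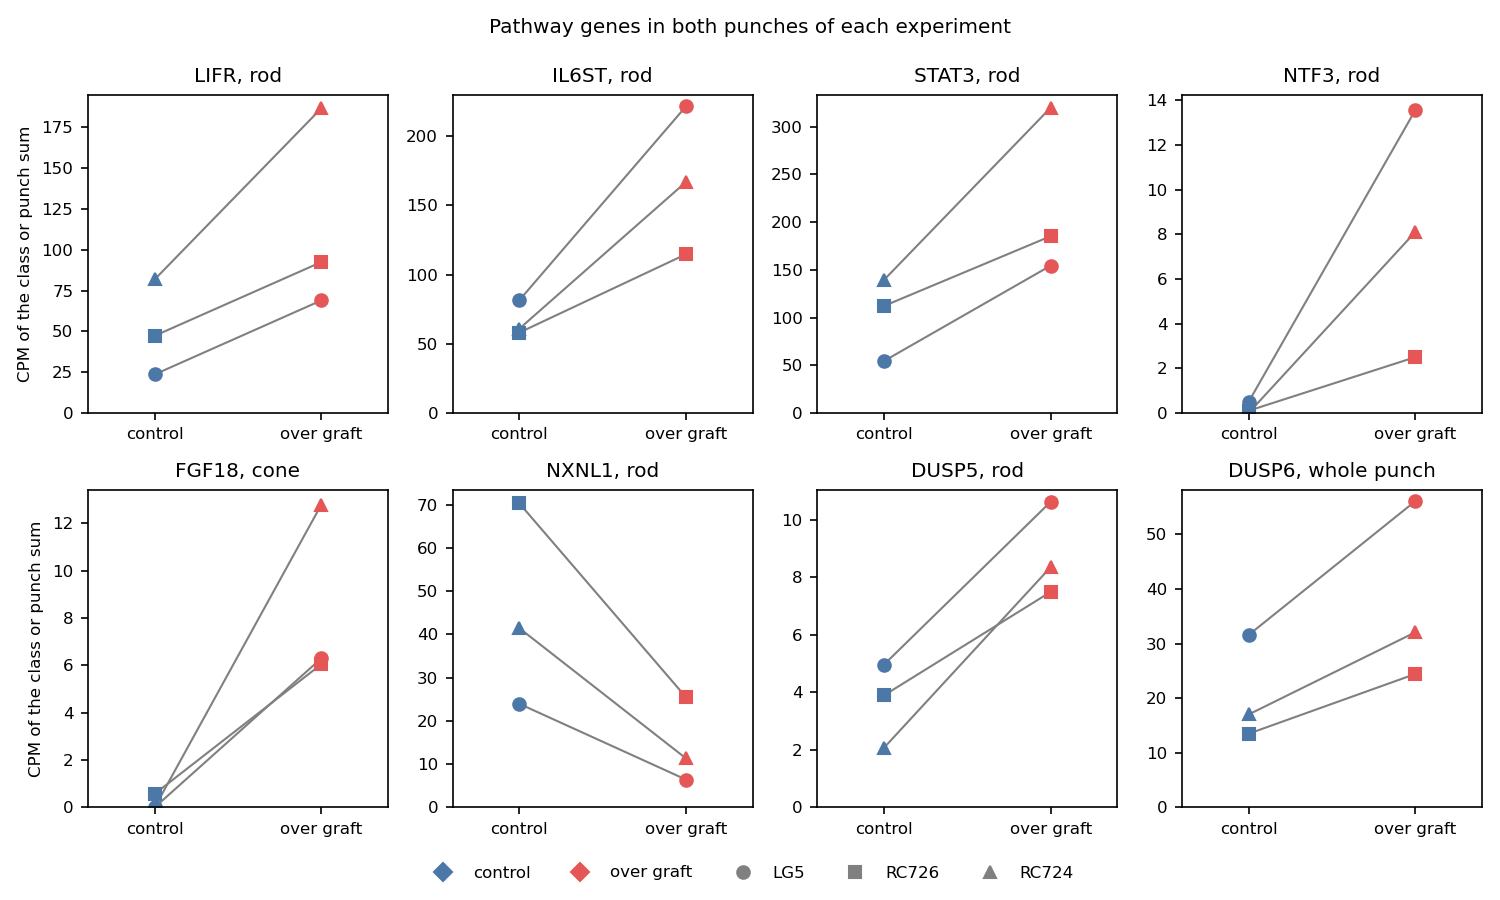
CPM (vertical axes, each from 0) in control and over the graft for LIFR, IL6ST, STAT3, NTF3, NXNL1 and DUSP5 in rod-like cells, FGF18 in cone-like cells and DUSP6 in the whole punch. Grey lines join the punches of 1 experiment. All lines rise except those of NXNL1, which fall.

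The neurotrophin NTF3 was near 0 in control rod-like cells, with 4, 1 and 0 UMIs in LG5, RC726 and RC724, and had 97, 25 and 98 UMIs over the graft. The log2 change was 5.29 (SE 0.49, edgeR adjusted p = 2.052e-05), and the pooled ratio per UMI was 42.1 (95% interval 17.8 to 131, exact, counting error only). NTF3 was also called in the whole punch (2.71, SE 0.25, adjusted p = 0.0138). Its direction was opposite to that of BDNF in rod-like cells. SORT1, a sorting receptor for neurotrophins, fell (-0.62, SE 0.12). Of 4 neurotrophins and receptors tested in rod-like cells, 1 rose and 1 fell, beside 18.3% of all genes called there.

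Of the 16 listed FGF ligands only FGF18 was tested in cone-like cells, and it rose there. It had 0, 2 and 0 UMIs in control and 18, 21 and 35 over the graft in LG5, RC726 and RC724 (log2 change 5.03, SE 0.67, edgeR adjusted p = 0.0008078; pooled ratio 38.9, 95% interval 10.4 to 327, exact, counting error only). In the LG5 libraries the free-RNA estimate for cone-like barcodes reached 100%, and with free RNA subtracted the call was lost (adjusted p = 0.917), as was every other in this class. FGF18 would have 1.02 CPM from free RNA in LG5 over the graft against 6.30 CPM observed. In rod-like cells FGF4 fell (-1.53, SE 0.46, adjusted p = 0.03998), with no UMI in LG5. Neither FGFR1 nor any listed FGF receptor or cofactor changed in rod-like cells (0 of 5 tested), in Müller-like cells (0 of 6) or in the whole punch (0 of 8).

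Of the feedback targets of FGF and ERK signalling, 2 of 8 tested in rod-like cells rose: DUSP5, a phosphatase of nuclear ERK, from 4.97 to 10.6 CPM, from 3.90 to 7.49 CPM and from 2.07 to 8.36 CPM (log2 change 1.30, SE 0.26, edgeR adjusted p = 0.004396), and EGR1 (0.58, SE 0.18). The median of the 8 was 0.11 beside 0.01 over all genes, and 18.3% of all genes were called in rod-like cells. In the whole punch DUSP6, a cytoplasmic ERK phosphatase, went from 31.6 to 56.1 CPM, from 13.5 to 24.4 CPM and from 17.0 to 32.1 CPM (0.87, SE 0.10, edgeR adjusted p = 0.01921). It was the 1 of 13 that passed there, beside 3.19% of all genes. No gene of the endothelin system (0 of 1 in rod-like cells, 0 of 3 in Müller-like cells, 0 of 4 in the punch) or of the GDNF family and its receptors (0 of 5, 0 of 4, 0 of 6) changed.

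Among other retinal survival factors, NXNL1, the gene of the rod-derived cone viability factor, fell in rod-like cells from 24.0 to 6.43 CPM, from 70.3 to 25.5 CPM and from 41.5 to 11.3 CPM (log2 change -1.72, SE 0.15, edgeR adjusted p = 1.248e-05). It fell also in cone-like cells (-1.77, SE 0.31, edgeR adjusted p = 0.004902) and in the whole punch (-1.87, SE 0.20, adjusted p = 0.01921). The cone-like call, like every other in that class, was lost with free RNA subtracted (0.917). PROS1 (1.44, SE 0.20) and MANF (0.50, SE 0.11), a protein of the stressed endoplasmic reticulum, rose in rod-like cells. HBEGF, a ligand of the EGF receptor, rose in the whole punch (1.10, SE 0.21, edgeR adjusted p = 0.04666), and the call was lost without LG5 (0.0967) and without RC724 (0.0711). Of the midkine partners, SDC4 rose (0.56, SE 0.16) and SDC3 fell (-0.56, SE 0.14) in rod-like cells, 2 of 11 tested. That share is near the 18.3% of all genes called there. Leaving out RC724 lost the calls of DUSP5 (adjusted p = 0.0723), MANF (0.0842), SDC4 (0.137), SDC3 (0.184), FGF4 (0.347), JAK1 (0.172), JAK2 (0.423) and, at a log2 change of 0.21, EGR1 (0.454). The calls of SDC4 (0.216) and JAK1 (0.0986) were lost without LG5 too, and those of JAK1 (0.0509) and JAK2 (0.172) without RC726.

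The order of classes can be set beside genes that follow the same order. Over 8 classes, with the mean of the 3 control libraries of each, 11653 genes with at least 20 CPM in a class were compared by Pearson's r of log2(CPM + 1). The genes most like FGF1 were SLC30A7 (r = 0.957), ATP10B and ABCA8. Those most like FGF2 were CHADL (0.983), ABLIM3 and GFPT1, those most like EDNRB were ROR2 (0.985), GNA14 and TMEM245, those most like MDK were OVOL2 (0.983), ADAMTS1 and MYB, and those most like FGFR1 were SLC22A5 (0.996), EFEMP2 and MRAS. These values describe 8 points that share their libraries, and carry no test.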

How the data were processed

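Each deposited matrix holds UMI counts that were not normalized, made by the authors with Cell Ranger 6.0.2 (both LG5 libraries), 7.1.0 and 7.0.0 (RC726 over the graft and control) and 7.1.0 (RC724), per the file headers. No source used here gives the genome build, so no coordinates or sequences are printed. Punches were exposed to trypsin (0.25%, 10 minutes) before dissociation, per the labels' protocols. All 6 libraries were mapped by their labels.

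Barcodes under 300 genes, or over 20% of UMIs in the 13 mitochondrial genes, were dropped. Scrublet's own threshold marked at most 0.0351% of a library, so the top 6% by that score were taken out of every library. Clusters (scanpy 1.11.5, 30 components, 20 neighbours, Leiden resolution 1.5) were made without the genes described here and were named from marker lists (score of at least 0.8, margin 0.4, 3 markers), with limits set after the data were seen. Free RNA per class was estimated from rod markers, and in rod-like cells from Müller markers. Where a level lay below that of free RNA, the estimate was too high or the UMIs were few. UMIs were summed per library and class and tested with edgeR 4.0.16 in R 4.3.3 (quasi-likelihood, TMM, filterByExpr, experiment as a block, 2 residual degrees of freedom among libraries). SE is the log2 change over the square root of F. A 0 in a class sum allows up to 3 counts. Intervals cover counting error only, with UMIs taken as independent and the libraries of a group pooled.

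Pairing comes from the series' design, in which both punches are from transplanted retina, and from the experiment names in the labels. The deviations of the 2 punches from their group means correlated at 0.841 to 0.975. This cannot tell a shared retina from a shared batch. Alternatives were DESeq2 1.42.0, other size factors, no filter, no block, each experiment left out, free RNA subtracted, stricter barcodes, no doublet removal, a marker gate per barcode and, chosen after seeing the data, the unnamed rod-scoring cluster counted as rods. The tests were tested on simulated data, in which false calls lay under the set level with a smooth dispersion and above it where dispersion differed from gene to gene. Named are all members, up to 4 changed genes per list and class by smallest p, and the 3 genes most like a member. The members and lists were chosen with earlier results of these data known.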

Additional observations from a re-analysis of the deposited data

Results flagged for a closer look

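The difference between the FGF1 changes of bipolar-like and rod-like cells (-1.48, SE 0.28, edgeR adjusted p = 0.0348) stands out because a test of the difference itself passed. The same test passed for listed pathway genes. In Müller-like against rod-like cells these were IL6ST (-1.24), JUNB (-1.35), PROS1 (-1.88) and STAT3 (-1.18), with the errors given above. In amacrine-like against rod-like cells they were BCL3 (-2.84, SE 0.45, edgeR adjusted p = 0.00144), IL6ST (-0.95, SE 0.19, adjusted p = 0.0095), NTF3 (-5.17, SE 0.80, adjusted p = 0.0013) and TIMP1 (-2.53, SE 0.65, adjusted p = 0.0433). In every case the change was lower than in rod-like cells, and NTF3 in rod-like cells rests on 4, 1 and 0 control UMIs. TIMP1 in the rod-like cells of LG5 over the graft was at 730 CPM, where free RNA alone would give 962 CPM. With 1 term per library, 0 genes in all were called for the Müller-rod and bipolar-rod pairs and 2 for the amacrine-rod pair by edgeR.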

How the results depend on the processing

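The 4 rises and 2 falls called for the measured genes became 9 rises and 2 falls without the low-count filter, 3 and 0 with DESeq2, 3 and 0 with free RNA subtracted, 5 and 1 with the marker gate, and 0 and 0 without the replicate block. Leaving out 1 experiment gave 3 to 5 rises and 0 to 2 falls. The rod-like FGF1 call was lost only without the replicate block, and so was that of LIF in the punch among the alternatives that gave it an adjusted p (without RC724 it did not pass the filter, and DESeq2 gave none). In Müller-like cells LIF and MDK passed without the filter (edgeR adjusted p = 0.0234 and 0.0241) and without LG5, and MDK passed with DESeq2.

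Changes of sign concerned only changes and differences that had not passed. With the marker gate, FGF2 was at -0.0847 in Müller-like, 0.015 in amacrine-like and -0.0478 in bipolar-like cells, FGF1 at 0.0145 and FGFR1 at 0.17 in astrocyte-like cells, and CNTF at 0.0108 in bipolar-like cells. CNTF was at 0.0841 there with stricter barcodes, FGFR1 in amacrine-like cells at -0.0596 with free RNA subtracted, and the Müller-rod difference of FGFR1 at 0.0923 with 1 term per library. With 1 experiment left out, FGF2 ranged from -0.0629 to 0.15 (Müller-like), -0.24 to 0.0502 (amacrine-like), -0.058 to 0.28 (astrocyte-like) and -0.32 to 0.50 (cone-like), FGF1 from -0.20 to 0.50 (Müller-like) and -0.45 to 0.0121 (astrocyte-like), BDNF from -0.31 to 1.43 (Müller-like) and -0.13 to 0.77 (punch), and CNTF from -0.43 to 0.0378 (bipolar-like) and -0.073 to 0.97 (cone-like). The cause was not tested.

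The count of all genes called in rod-like cells, 2725, was 1120 without RC724, 1578 with free RNA subtracted and 0 without the block (512 at an unadjusted p under 0.05). In the punch 683 became 2032 with DESeq2, 1790 without the filter and 408 without LG5. In cone-like cells 445 became 0 with free RNA subtracted and 973 without the filter, and in Müller-like cells 37 became 0 with free RNA subtracted, 240 with DESeq2 and 829 without LG5. In astrocyte-like cells 14 genes, 71.4% of them higher, became 20 with 55% higher under DESeq2's size factors in edgeR. Over the alternatives the counts ran from 0 to 143 in astrocyte-like, 0 to 172 in amacrine-like (44), 0 to 650 in bipolar-like (21), 0 to 102 in horizontal-like (2) and 0 to 100 in microglia-like cells (0), lowest without the block in the first 4 and highest without the filter in all. LIF, EDN2, BDNF and CNTF rest on few UMIs in most libraries, which limits what their tests can show. Among the tested classes, which leave out endothelial-like and ganglion-like cells, the class with the highest control level stayed the same for all 9 genes without doublet removal and with the marker gate.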
